A study of Mus musculus with 12 samples.

Results

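The 8 genes described here encode the core of the machinery through which tumour necrosis factor (TNF) can kill a cell: Tradd, Ripk1, Fadd, Casp8, Cflar, Ripk3, Zbp1 and Mlkl. They were taken by symbol from the 46603 gene rows of the count table, each matched 1 row, and all 8 passed the filter on low counts in every comparison. They were followed in 4 groups of 3 mouse libraries: ileum of TNFdARE mice, ileum of WT littermates, ankle synovium of TNFdARE mice and ankle synovium of WT littermates. TNFdARE mice lack the AU-rich element that limits the stability and translation of the Tnf mRNA, and they are known to develop inflammation of the ileum and of the joints. The labels give no treatment, age or sex for any group, and whether 1 mouse gave both an ileum and a synovium library is not stated. The samples are whole tissues, and the labels call the libraries of a group biological replicates.

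TNF bound to its receptor TNFR1 recruits the adaptor TRADD and the kinase RIPK1 into a membrane complex that mainly drives NF-kB and survival genes. When that complex is not held in check, RIPK1 and the adaptor FADD assemble with caspase-8, which starts apoptosis. c-FLIP, the product of Cflar, is a caspase-8 relative that pairs with it and limits that step. Active caspase-8 also cleaves RIPK1 and RIPK3. Where caspase-8 is blocked, RIPK3 phosphorylates MLKL, which then breaks the plasma membrane (necroptosis). ZBP1 senses Z-form nucleic acid and can bring in RIPK3 without TNF. In mouse gut, loss of Casp8 or Fadd from the epithelium is known to cause ileitis that depends on RIPK3.

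Totals lay between 14267834 and 16224402 counts per library, so that 1 count was worth 0.0576 to 0.073 CPM, the count scaled to library size. Tnf, the gene the allele alters, was measured at 82.7, 17.2 and 47.3 CPM in TNFdARE ileum, against 2.63, 1.39 and 1.62 CPM in WT ileum, and at 38.4, 32.5 and 28.3 CPM in TNFdARE synovium, against 2.15, 2.02 and 1.89 CPM in WT synovium. Replicate 2 of TNFdARE ileum stood apart. Its 16 leukocyte markers summed to 997 CPM, against 3515 and 2187 CPM in the other TNFdARE ileum libraries and 356 to 477 CPM in WT ileum. The tissue labels fitted their markers: Epcam, an epithelial adhesion molecule, had 5.91 to 8.64 CPM in TNFdARE synovium and 5.99 to 7.20 CPM in WT synovium, against 1547 to 2258 CPM in TNFdARE ileum and 2317 to 2428 CPM in WT ileum, and Prg4, the lubricin gene of the synovial lining, had 3407 to 4048 CPM in TNFdARE synovium and 12916 to 15135 CPM in WT synovium, against at most 0.952 CPM in any ileum library. Synovium libraries also held skeletal muscle RNA, with 12 muscle markers summing to 2242 to 9112 CPM in TNFdARE synovium and 12726 to 24769 CPM in WT synovium.

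In GRCm38 coordinates of the GENCODE annotation, Cflar lies on chromosome 1 at 58711508 to 58758884 and Casp8 downstream of it on the same strand at 58795374 to 58847503. Ripk1 lies on chromosome 13 at 34002363 to 34037147, Ripk3 on chromosome 14 at 55784995 to 55788865, Zbp1 on chromosome 2 at 173206612 to 173218923, and Fadd on chromosome 7 at 144577318 to 144582463. Tradd, at 105258286 to 105264609, and Mlkl, at 111311797 to 111338177, both lie on chromosome 8. Ripk1 overlaps Serpinb6a on the other strand and 2 processed pseudogenes. Fadd overlaps the antisense gene Faddos, Casp8 overlaps the unproven transcript Gm37760 and Mlkl a processed pseudogene. The kit kept strand, but the strand setting of the counting is not given in the sources used here, so reads of Ripk1 and Serpinb6a, or of Fadd and Faddos, may not have been told apart.

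Some of these genes are known to answer interferon, so the RefSeq promoters of GRCm38.p6, from 250 bases before to 50 bases after each start, were searched on both strands for the letters GAAANNGAA (the core of an interferon-stimulated response element), TTCNNNGAA (a STAT site) and GGGNNTTTC (an NF-kB site). The tables held 7 promoters of 6 of the genes, 2 of them for Ripk1. None was held for Tradd or Zbp1, so the promoters of these genes were not searched. The response element core occurred in 3 of these 7, in Ripk3, Cflar and the downstream start of Ripk1, against 8.56% of 32851 promoters of all genes. The STAT letters occurred in 1 of 7, at 108 and 11 bases before that same Ripk1 start, against 8.30% of all promoters; the nearer match overlaps the response element core. The NF-kB letters occurred in 0 of 7, against 4.36% of all promoters. The 3 windows that hold the response element core follow, 5′ to 3′ on the strand of the gene, with the matched letters in capitals and positions counted from 1 at the start.
Ripk3, chr14:55788825-55788853, minus strand, match starting at position 15: cctcttatttGAAAGGGAAgttgtgaagt
Cflar, chr1:58711488-58711516, plus strand, match on the other strand starting at position 8: cacgtctgctTTCGGTTTCtgggcgtctc
Ripk1, chr13:34002859-34002887, plus strand, match starting 5 bases before the start: aacgttcccgGAAATCGAAaagcgcggaa
These are matches of letters, and no binding was measured.

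In the synovium the genes stood higher in TNFdARE than in WT. All 8 had every TNFdARE library above every WT library, a separation that 20.7% of the 15599 genes tested showed. Of the 8, 4 passed the test as higher and none as lower (edgeR's quasi-likelihood F test with Benjamini-Hochberg adjustment over all genes, threshold 0.05), against 13.1% of genes called higher. The called genes were Casp8, Cflar, Zbp1 and Mlkl. The median log2 fold change of the 8 was 0.51, with a range of 0.28 to 0.76, beside a median of 0.0029 over all genes tested.

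**Figure D1:**
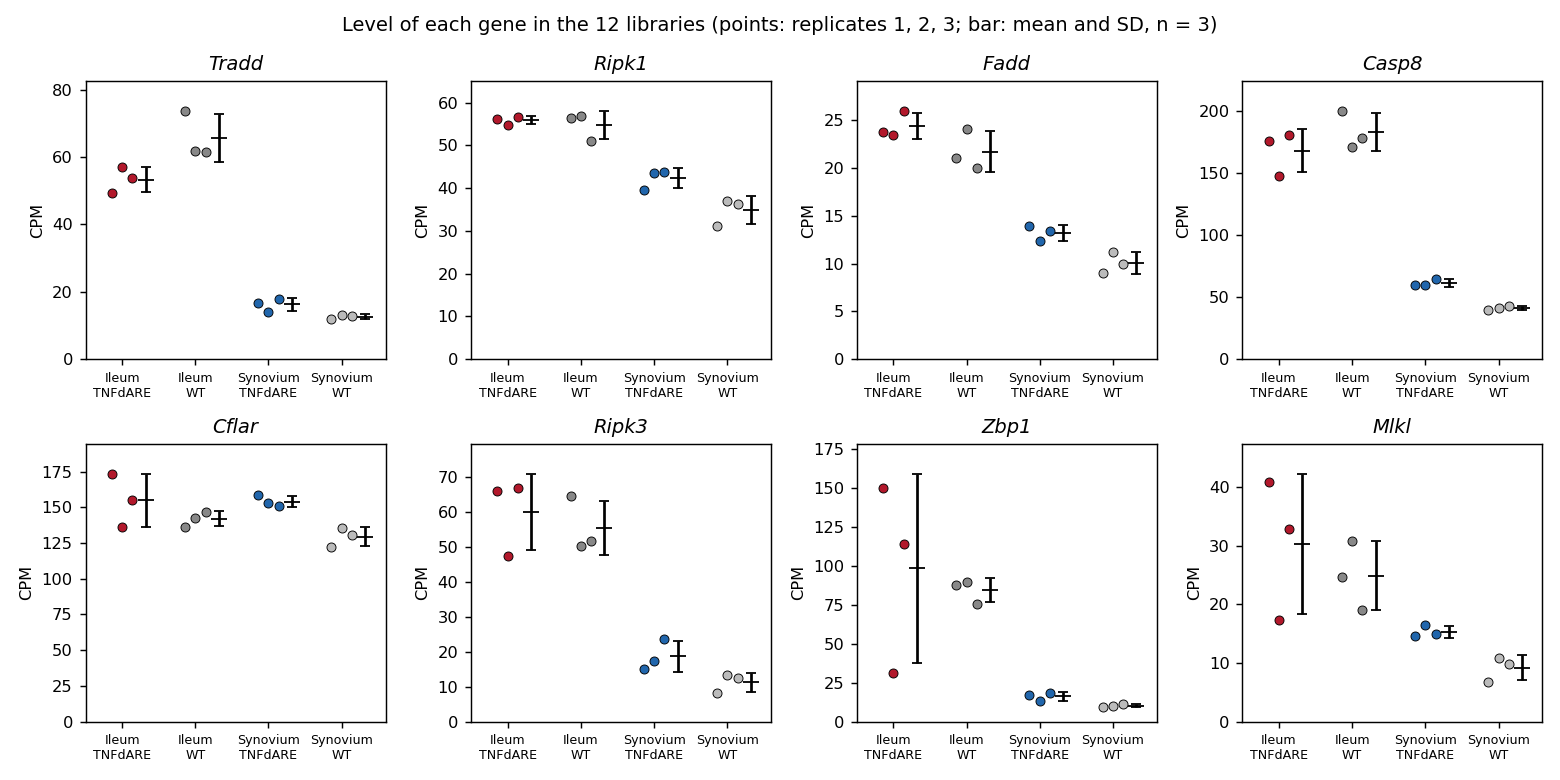
CPM (vertical axes, linear, starting at 0) of the 8 genes in the 12 libraries; points are replicates 1, 2 and 3 of each group from left to right, and the bar beside them is the mean with its SD (n = 3). In the synovium every TNFdARE point lies above every WT point for all 8 genes, and in the ileum replicate 2 of TNFdARE has the lowest Zbp1 (31.6 CPM) and Mlkl (17.3 CPM) points.

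Among the initiators, Casp8, the caspase that starts death receptor apoptosis, had 59.7, 59.8 and 64.9 CPM in TNFdARE synovium, against 39.3, 41.1 and 42.9 CPM in WT synovium. The groups lay far apart relative to their spread, and the log2 fold change was 0.61 ± 0.076 (SE; n = 3 each, edgeR adjusted p = 0.00231). Casp8 passed the threshold under every alternative tried and without any 1 library, with an adjusted p of at most 0.0112 when a library was left out. Cflar, its inhibitor, had 158, 153 and 151 CPM in TNFdARE synovium, against 122, 135 and 131 CPM in WT synovium. That is a smaller change, with a log2 fold change of 0.28 ± 0.066 (edgeR adjusted p = 0.0232), and it missed the threshold without any 1 of 5 of the 6 libraries (adjusted p up to 0.0725; WT replicate 2 was the exception) and when all 12 libraries were fitted together (0.0577).

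The adaptors at the receptor did not pass. Tradd, the adaptor that binds TNFR1, had 16.8, 14.1 and 18.0 CPM in TNFdARE synovium, against 11.8, 13.1 and 12.8 CPM in WT synovium, a log2 fold change of 0.40 ± 0.13 (edgeR adjusted p = 0.0597). Fadd, which carries caspase-8 into the complex, had 13.9, 12.3 and 13.4 CPM in TNFdARE synovium, against 9.01, 11.3 and 9.92 CPM in WT synovium, a log2 fold change of 0.42 ± 0.13 (edgeR adjusted p = 0.0523). Their groups did not overlap, yet both values fell just short of the threshold. Ripk1, the kinase that stands between survival and death, had 39.6, 43.5 and 43.8 CPM in TNFdARE synovium, against 31.2, 37.0 and 36.3 CPM in WT synovium, with a log2 fold change of 0.31 ± 0.097 (edgeR adjusted p = 0.0567). With replicate number as a block its adjusted p was 0.0244. When all 12 libraries were fitted together Tradd, Fadd and Ripk1 passed (edgeR adjusted p = 0.0412, 0.0344 and 0.0356).

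In the necroptosis arm, Mlkl, the executioner, had 14.6, 16.5 and 14.9 CPM in TNFdARE synovium, against 6.86, 10.9 and 9.92 CPM in WT synovium. The lowest TNFdARE library was well above the highest WT library, and the log2 fold change was 0.76 ± 0.18 (edgeR adjusted p = 0.0232). Zbp1, the Z-nucleic acid sensor, had 16.9, 13.2 and 18.8 CPM in TNFdARE synovium, against 9.77, 10.1 and 11.2 CPM in WT synovium, a log2 fold change of 0.68 ± 0.16 (edgeR adjusted p = 0.0201). Ripk3, the kinase that activates MLKL, had 15.2, 17.3 and 23.7 CPM in TNFdARE synovium, against 8.17, 13.3 and 12.5 CPM in WT synovium. Its log2 fold change of 0.76 ± 0.24 was as large as that of Mlkl, but its replicates varied more and the adjusted p was 0.0593 (edgeR). With replicate number as a block Ripk3 passed (edgeR adjusted p = 0.00863), which with Ripk1 made 6 of 8 called. That setting called 2441 of all 15599 genes higher, against 2037 in the main fit. Ripk3 also passed when all 12 libraries were fitted together (edgeR adjusted p = 0.0412). Zbp1 missed the threshold without TNFdARE replicate 1 or 3 or WT replicate 1 or 2 (adjusted p up to 0.0669), Mlkl without TNFdARE replicate 2 or 3 or WT replicate 3 (up to 0.064), and both when all 12 libraries were fitted together (0.325 and 0.102).

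Leukocyte markers were higher alongside these genes: 11 of 16 were called higher in TNFdARE synovium (1 when all 12 libraries were fitted together) and none lower (with replicate number as a block 1, the B cell gene Cd79a), with a median log2 fold change of 0.81, and their sum ranged from 4197 to 6544 CPM in TNFdARE synovium and from 2329 to 4434 CPM in WT synovium. None of the 16 was at 0 in any group. Of all 15599 genes tested, 13.1% were called higher, and 1728 of 16964 when all 12 libraries were fitted together. Of the 12 skeletal muscle markers 1 was called lower, 11 with replicate number as a block and 10 when all 12 libraries were fitted together. Over all genes, those called lower numbered 1676 of 15599, 2401 of 15599 with the block and 1928 of 16964 in the fit of 12 libraries. Whether leukocyte or muscle content had a part in the rise of Casp8, Cflar, Zbp1 and Mlkl was not tested. In bulk tissue, more cells of a type and more RNA per cell cannot be told apart.

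**Figure D2:**
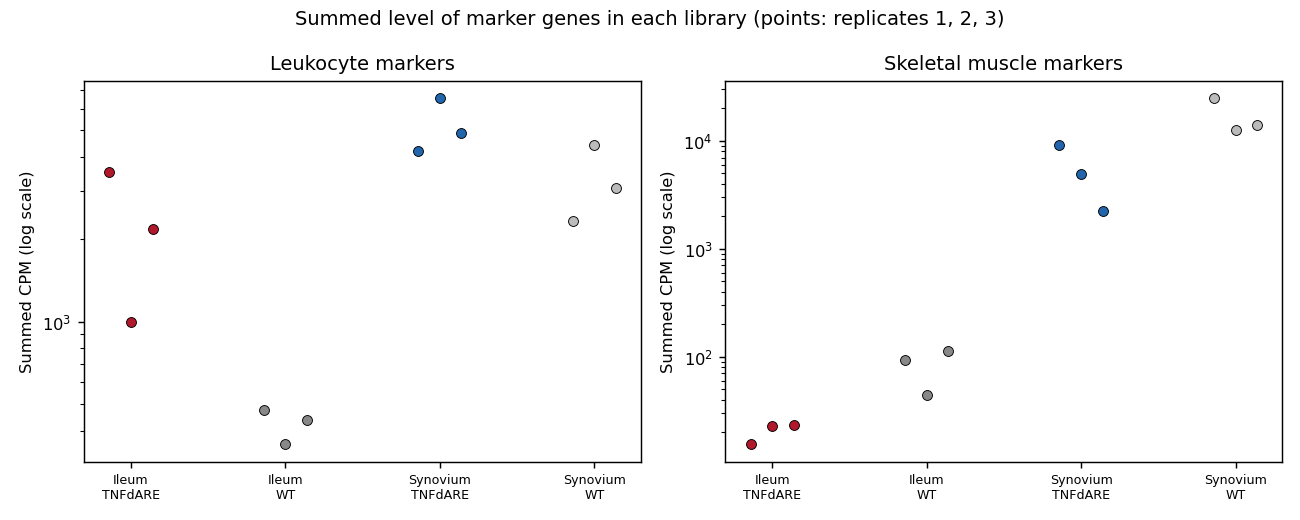
Summed CPM (log scale) of 16 leukocyte markers (left) and 12 skeletal muscle markers (right) in the 12 libraries; points are replicates 1, 2 and 3 of each group from left to right. TNFdARE ileum spans 997 to 3515 CPM for leukocyte markers with replicate 2 lowest, and muscle markers are lower in every TNFdARE synovium library than in every WT one.

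In the ileum 0 of the 8 genes passed in the same test, against 5.68% of the 15462 genes tested that were called in either direction. By unadjusted p under 0.05 there was 1 (Tradd), against 4716 of the 15462 genes. DESeq2 called 0 of the 8 and 2715 of all genes. Because limma-voom called 0 of all genes in the ileum, its 0 of 8 adds nothing. The median log2 fold change was 0.12, with a range of -0.30 to 0.29, beside a median of -0.0024 over all genes. Tnf itself was called in this tissue, with a log2 fold change of 4.70 ± 0.68 (edgeR adjusted p = 0.0404), as it was in the synovium (4.06 ± 0.15, adjusted p = 6.18e-05).

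Tradd was the only member whose ileum groups did not overlap. The sum of 12 epithelial markers separated the same way, at 13604 to 17513 CPM in TNFdARE ileum and 18888 to 20456 CPM in WT ileum. Singly 1 of the 12, Cdx1, was called lower, against 242 of all 15462 genes, and 0 were called higher. The median log2 fold change of the 12 was -0.32, with 0 to 7 called lower without 1 library. The part of these markers in the Tradd levels was not tested. Tradd had 49.3, 56.9 and 53.7 CPM in TNFdARE ileum, against 73.7, 61.8 and 61.3 CPM in WT ileum, lower in each TNFdARE library, which 18.4% of genes showed. The log2 fold change was -0.30 ± 0.10 (edgeR adjusted p = 0.11). Casp8 had 176, 148 and 180 CPM in TNFdARE ileum, against 200, 171 and 178 CPM in WT ileum, with overlapping groups and a log2 fold change of -0.12 ± 0.10 (edgeR adjusted p = 0.472). Cflar had 174, 136 and 155 CPM in TNFdARE ileum, against 136, 143 and 147 CPM in WT ileum, and its groups overlapped too (0.13 ± 0.10, adjusted p = 0.418). Ripk1 was the most even of the genes, at 54.8 to 56.6 CPM in TNFdARE ileum and 50.9 to 56.9 CPM in WT ileum (0.034 ± 0.073, adjusted p = 0.786). Fadd ranged from 23.4 to 25.99 CPM in TNFdARE ileum and from 19.98 to 24.1 CPM in WT ileum (0.17 ± 0.10, adjusted p = 0.300).

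The necroptosis genes spread most within TNFdARE ileum. Zbp1 had 150, 31.6 and 114 CPM in TNFdARE ileum, against 88.1, 89.8 and 75.5 CPM in WT ileum. Replicate 2 lay below all WT libraries and the other TNFdARE libraries above them, a 4.75-fold range within the group, and the log2 fold change was 0.23 ± 0.52 (edgeR adjusted p = 0.797). Without that replicate Zbp1 was called at 0.66 (adjusted p = 0.0109), 4633 genes were called in place of 879, and the other members stayed uncalled. Mlkl had 40.9, 17.3 and 32.9 CPM in TNFdARE ileum, against 24.7, 30.9 and 19.1 CPM in WT ileum (0.29 ± 0.34, adjusted p = 0.597), again lowest in replicate 2. Ripk3 had 65.9, 47.5 and 66.9 CPM in TNFdARE ileum, against 64.4, 50.3 and 51.6 CPM in WT ileum (0.12 ± 0.16, adjusted p = 0.651). Replicate 2 also had the lowest sum of leukocyte markers (997 CPM) and the highest of epithelial markers (17513 CPM) in its group, and the part of cell content in its Zbp1 and Mlkl levels was not tested.

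**Figure D3:**
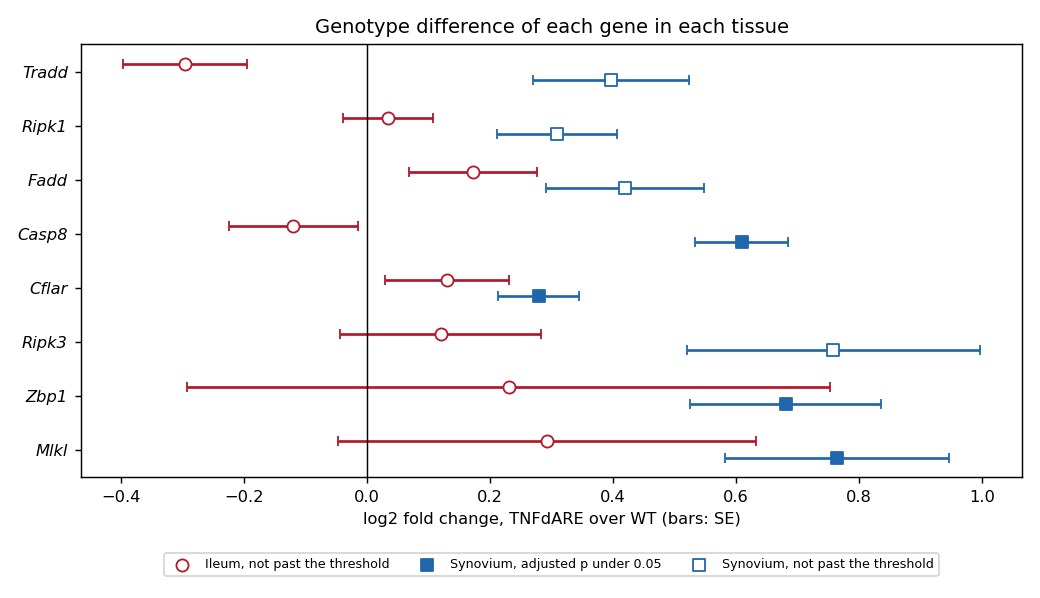
log2 fold change of TNFdARE over WT with its SE (horizontal axis) for the 8 genes, from the fit of each tissue by itself; circles are ileum, squares are synovium, and filled symbols have an edgeR adjusted p under 0.05. All synovium symbols lie right of 0, with Casp8, Cflar, Zbp1 and Mlkl filled, and no ileum symbol is filled.

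The difference between tissues was tested as an interaction over all 12 libraries. The effect of the allele was more positive in synovium than in ileum for Casp8, by 0.70 ± 0.13 log2 units (edgeR adjusted p = 0.00786), and for Tradd, by 0.67 ± 0.16 (adjusted p = 0.0227). These were 2 of the 8 genes, against 5.28% of the 16964 genes tested that were called higher. The other members had positive differences of 0.13 to 0.61 that did not pass, with Ripk3 at 0.61 ± 0.31 (adjusted p = 0.212), Mlkl at 0.45 ± 0.41 (0.513) and Zbp1 at 0.43 ± 0.60 (0.689). The median over all genes was -0.081. Marker genes differed between tissues as well: 7 of 16 leukocyte markers were called lower for the interaction and 0 higher (median -1.49; 2 to 15 called lower without 1 library), with 9 of 16 called higher in TNFdARE ileum (median 2.52; 0 to 15 called without 1 library), and of 12 fibroblast and synovial lining markers 5 were called lower and 1 higher. Over all genes tested, 6.8% were called lower for the interaction, and 637 of 15462 were called higher in TNFdARE ileum. The part of the markers in the differences of Casp8 and Tradd was not tested. Casp8 kept its call without any 1 library, and Tradd lost it without TNFdARE ileum replicate 3 (adjusted p = 0.0528) and without TNFdARE synovium replicate 3 (0.058).

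In WT mice 7 of the 8 genes were lower in synovium than in ileum, against 36.0% of genes called lower. Zbp1 averaged 10.4 ± 0.76 CPM in WT synovium and 84.4 ± 7.8 CPM in WT ileum (SD, n = 3 each), a log2 fold change of -3.03 ± 0.45 (SE, edgeR adjusted p = 0.000115). Tradd averaged 12.6 ± 0.72 CPM in WT synovium and 65.6 ± 7.0 CPM in WT ileum, and its log2 fold change was -2.38 ± 0.12. Ripk3 (-2.29 ± 0.23) and Casp8 (-2.16 ± 0.093) were lower by similar amounts. Mlkl (-1.43 ± 0.30), Fadd (-1.11 ± 0.11) and Ripk1 (-0.65 ± 0.083) followed. Cflar was the exception, at 129 ± 6.5 CPM in WT synovium and 142 ± 5.4 CPM in WT ileum, a log2 fold change of -0.13 ± 0.085 that did not pass (edgeR adjusted p = 0.177) and that turned to 0.014 with library size alone.

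The order was similar between the TNFdARE tissues, where the same 7 genes were lower in synovium, against 35.0% of genes called lower. The log2 fold changes, synovium over ileum, were -2.60 ± 0.44 for Zbp1, -1.71 ± 0.11 for Tradd, -1.68 ± 0.22 for Ripk3, -1.45 ± 0.090 for Casp8, -0.98 ± 0.29 for Mlkl, -0.89 ± 0.11 for Fadd and -0.40 ± 0.082 for Ripk1. Mlkl missed the threshold without TNFdARE ileum replicate 1 (adjusted p = 0.0599). Cflar averaged 154 ± 3.9 CPM in TNFdARE synovium and 155 ± 19 CPM in TNFdARE ileum, with a log2 fold change of -0.0075 ± 0.085 (edgeR adjusted p = 0.945) whose sign turned with RLE factors (0.030) and with library size alone (0.070). Epithelial markers summed to 33.5 to 45.3 CPM in TNFdARE synovium and 13604 to 17513 CPM in TNFdARE ileum, with Cdx2 at 0 in every synovium library, so that tissue and epithelial content cannot be told apart in these comparisons.

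For all members but Cflar the means of the 2 ileum groups were the highest, TNFdARE synovium came next and WT synovium was the lowest. The 2 ileum groups overlapped for every member but Tradd. To compare genes with each other, levels were divided by the exon length of each gene (CPM per kilobase). Casp8 was then the most abundant member in every group, with a mean of 21.2 CPM per kilobase in TNFdARE synovium, 14.2 in WT synovium, 58.1 in TNFdARE ileum and 63.3 in WT ileum. Fadd was the least abundant, with 3.38 CPM per kilobase in TNFdARE synovium, 2.58 in WT synovium, 6.25 in TNFdARE ileum and 5.56 in WT ileum. Cflar had 12.2 CPM per kilobase in both TNFdARE tissues, 10.2 in WT synovium and 11.2 in WT ileum. Its value depends on the length used, because the exons of all its transcripts add up to 12669 bases and its longest coding transcript has 6572; with transcript lengths WT synovium had 19.7 CPM per kilobase of Cflar, above 15.9 of Casp8. Within WT ileum, Tradd (35.2), Ripk3 (24.2) and Zbp1 (23.9) came after Casp8 by exon length, with Ripk3 and Zbp1 within each other's SD (3.4 and 2.2). By longest coding transcript Zbp1 (42.4) came before Tradd (38.9) and Ripk3 (28.2).

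The balance of the inhibitor Cflar to its target Casp8 was read as the ratio of their counts in each library, which does not depend on how libraries are scaled. The ratio was 2.65, 2.56 and 2.32 in TNFdARE synovium, against 3.12, 3.29 and 3.04 in WT synovium. In the ileum it was 0.988, 0.919 and 0.858 in TNFdARE libraries, against 0.680, 0.834 and 0.825 in WT libraries. So there was less Cflar per Casp8 in every TNFdARE synovium library than in any WT one, by 0.33 log2 units, and more in every TNFdARE ileum library than in any WT one, by 0.24 log2 units. Each exact permutation test, two-sided, gave p = 0.1, the smallest value that 3 against 3 allow. The difference between tissues was not tested for the ratio. The 6 other tests, of Ripk3 to Casp8, Zbp1 to Ripk3 and Mlkl to Ripk3 in each tissue, had overlapping groups and exact permutation p between 0.2 and 1.0, and adjusted over all 8 tests the lowest p was 0.4. The ratio of Mlkl to Ripk3 counts averaged 0.849 ± 0.19 in TNFdARE synovium and 0.818 ± 0.022 in WT synovium, and 0.492 ± 0.13 in TNFdARE ileum and 0.455 ± 0.14 in WT ileum (SD, n = 3 each).

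**Figure D4:**
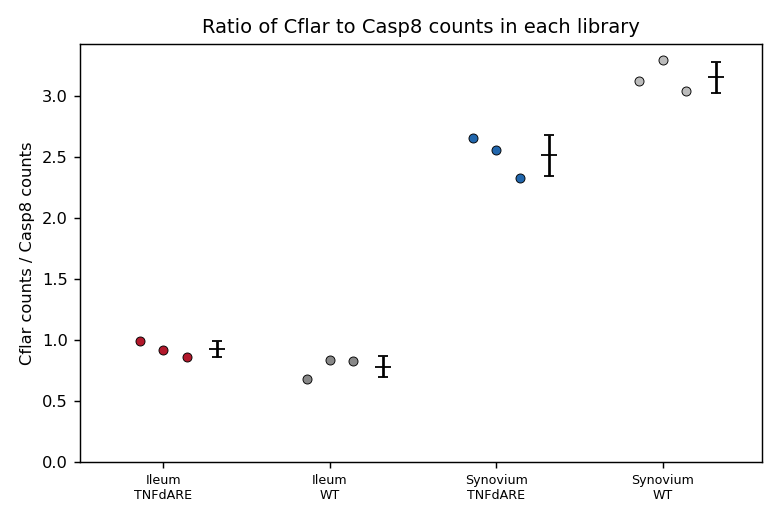
Ratio of Cflar counts to Casp8 counts (vertical axis, linear, starting at 0) in each of the 12 libraries; points are replicates 1, 2 and 3 from left to right, and the bar is the mean with its SD (n = 3). The TNFdARE points lie below the WT points in the synovium (2.32 to 2.65 against 3.04 to 3.29) and above them in the ileum (0.858 to 0.988 against 0.680 to 0.834).

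The neighbours of the 8 genes in the pathway were read from 5 lists. Of 12 death receptors and ligands, 10 were tested in the synovium, where 5 were called higher, against 13.1% of all genes, and 0 lower (median log2 fold change 0.33). Besides Tnf these were Fas, a receptor that recruits FADD directly, with 38.3, 35.4 and 40.0 CPM in TNFdARE synovium, against 12.7, 12.7 and 15.9 CPM in WT synovium (1.49 ± 0.12, adjusted p = 0.000545), the TNF receptor genes Tnfrsf1b (1.04 ± 0.11) and Tnfrsf1a, and Tnfsf12, the TWEAK ligand gene (0.62 ± 0.095). In the ileum 1 of 11, Tnf, was called, against 879 of all 15462 genes. The list count there was 6 without TNFdARE replicate 2, 4 when all 12 libraries were fitted together, and 0 without TNFdARE replicate 3 or any 1 WT library. Fas differed between tissues (0.92 ± 0.20, adjusted p = 0.0193), with 31.9, 22.5 and 28.9 CPM in TNFdARE ileum, against 21.6, 18.0 and 17.6 CPM in WT ileum, and its difference lost its call without TNFdARE synovium replicate 3 (0.05002).

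The next list held 23 genes that place or remove ubiquitin in the TNF receptor complex, or signal from it as kinases. In the synovium 8 were called higher, against 13.1% of all genes, and 0 lower (median 0.18). Traf1, an adaptor gene induced by NF-kB, had 58.1, 58.3 and 50.5 CPM in TNFdARE synovium, against 11.6, 11.8 and 12.2 CPM in WT synovium (2.26 ± 0.090, edgeR adjusted p = 6.47e-05). The brakes Tnfaip3, which encodes A20 (1.73 ± 0.088), and Tnip1 (1.24 ± 0.075), and the ubiquitin ligase gene Birc3 (1.10 ± 0.10) were the next by adjusted p. In the ileum 3 of 23 were called higher, against 637 of all 15462 genes, and 0 lower (median 0.33). They were Birc3 (1.37 ± 0.19), Cyld, a deubiquitinase gene (0.52 ± 0.11), and Birc2 (0.70 ± 0.15). For the interaction 0 of 23 were called by edgeR and 4 had an unadjusted p under 0.05, as 5012 of all 16964 genes did. DESeq2 called 3 of the list and 3193 of all genes, and limma-voom 0 of the list and 1561 of all genes. In the ileum the count called higher for this list was 11 without TNFdARE replicate 2, 10 when all 12 libraries were fitted together, 1 without TNFdARE replicate 1 and 0 without any 1 of the other libraries. Ileum calls over all genes rested on single libraries too: 4633 were called without TNFdARE replicate 2, 278 without replicate 1, 2 without replicate 3, and 0 without any 1 WT library.

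Of 13 other genes that act on RIPK3, MLKL or ZBP1, 1 was called higher in the synovium, against 13.1% of all genes. It was the Toll-like receptor gene Tlr4 (0.55 ± 0.11, edgeR adjusted p = 0.0128, and 0.19 when all 12 libraries were fitted together). With replicate number as a block the phosphatase gene Ppm1b was called lower (-0.45, adjusted p = 0.00784). In the ileum 0 were called by edgeR and 4 had an unadjusted p under 0.05, as 4716 of all 15462 genes did. DESeq2 called 1 of the list and 2715 of all genes, and limma-voom called 0 of all genes. The interaction called 3 higher, against 5.28% of all genes, and these 3 had point estimates above 0 in synovium and below 0 in ileum: Hsp90aa1, a chaperone gene (0.75 ± 0.20), Ticam1, the gene of the RIPK3-binding adaptor TRIF (0.68 ± 0.19), and Tlr3, the double-stranded RNA receptor that signals through it (0.58 ± 0.17). They passed narrowly (adjusted p = 0.034, 0.043 and 0.0499), and each lost its call when some single libraries were left out, with adjusted p up to 0.0814, 0.0874 and 0.106.

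Caspase and BCL2 family genes, which act downstream of caspase-8 or at the mitochondrion, had 10 of 23 members called higher in TNFdARE synovium, against 13.1% of all genes, and 0 lower. Their median log2 fold change was 0.48. With replicate number as a block 1 was lower, Bcl2 (-0.38, adjusted p = 0.0424). Bak1, a gene of the pores that open the outer mitochondrial membrane, had 56.6, 51.7 and 57.5 CPM in TNFdARE synovium, against 33.7, 36.4 and 35.4 CPM in WT synovium (0.68 ± 0.077, edgeR adjusted p = 0.00163). Its partner Bax (0.60 ± 0.093) and the survival gene Mcl1 (0.50 ± 0.079) were also higher. In the ileum 4 of 23 were called higher and 1 lower (median 0.12), against 637 and 242 of all 15462 genes. The count called higher was 10 without TNFdARE replicate 2, 8 when all 12 libraries were fitted together, 2 without TNFdARE replicate 1 and 0 without any 1 of the other libraries. Bcl2l11, the gene of the death activator BIM, had 46.6, 28.2 and 43.8 CPM in TNFdARE ileum, against 18.0, 17.9 and 19.98 CPM in WT ileum (1.09 ± 0.20, edgeR adjusted p = 0.041). The others were the A1 survival genes Bcl2a1a, Bcl2a1b and Bcl2a1d, near-identical copies between which the counting may have split reads, with log2 fold changes of 3.04 to 3.35. Bad, the gene lower in TNFdARE ileum, was at -0.47 ± 0.096 (adjusted p = 0.0459).

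The same list differed between tissues in 7 of 23 members, against 2050 of all 16964 genes. Bak1 (0.85 ± 0.098, edgeR adjusted p = 0.00127), Casp6 (0.77 ± 0.19), Bad (0.64 ± 0.12) and Apaf1, the apoptosome gene (0.57 ± 0.17), were more positive in synovium, as Casp8 was. Bcl2 (-0.86 ± 0.17) and Bcl2l11 (-0.98 ± 0.23) were more negative, against 6.8% of genes called lower; with replicate number as a block Bcl2a1b (-1.998, adjusted p = 0.0225) and Bcl2a1d (-1.64, 0.0341) were also called, which made 4. Bak1 had 214, 194 and 205 CPM in TNFdARE ileum, against 247, 226 and 227 CPM in WT ileum, a log2 fold change of -0.19 ± 0.076 that did not pass there (edgeR adjusted p = 0.151). Bak1, Bad and Bcl2 kept the call without any 1 library, and Casp6, Apaf1 and Bcl2l11 did not.

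**Figure D5:**
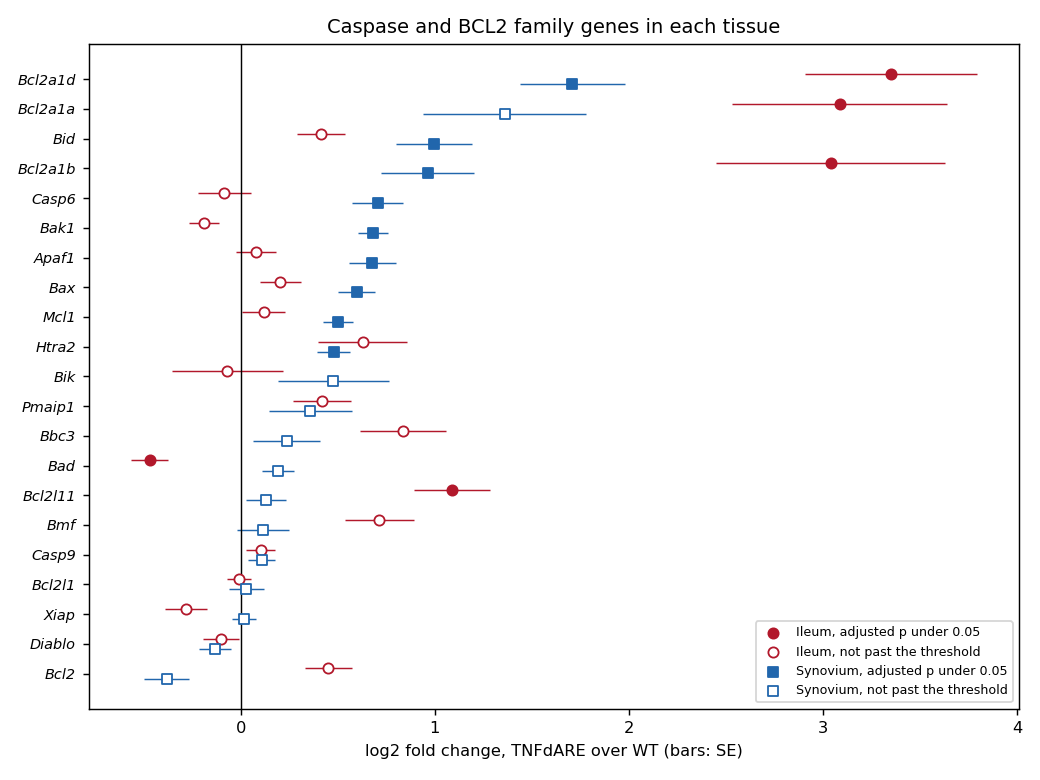
log2 fold change of TNFdARE over WT with its SE (horizontal axis) for 21 caspase and BCL2 family genes, ordered by the synovium value; circles are ileum, squares are synovium, and filled symbols have an edgeR adjusted p under 0.05. Filled squares number 9, all right of 0, and filled circles are the 3 A1 genes, Bcl2l11 and, left of 0, Bad.

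Interferon target genes did not move 1 way in the synovium. Of 21, 4 were called higher and 5 lower, beside 13.1% of all genes called higher and 10.7% called lower, and the median was -0.21. Gbp5 (1.61 ± 0.11), Gbp2 (1.00 ± 0.13), Gbp3 and Cxcl10 (1.64 ± 0.23) were higher. Ifit2 (-0.53 ± 0.091), Iigp1 (-0.73 ± 0.13), Rsad2 (-0.87 ± 0.23), Ifit3 (-0.87 ± 0.25) and Usp18 (-0.66 ± 0.19) were lower. Zbp1 and Mlkl, both known to be inducible by interferon, were higher there, as given above. Rsad2 lost its call without any 1 of the 6 libraries, and Ifit3 and Usp18 without any 1 of 5 of them (adjusted p up to 0.0836, 0.121 and 0.118), and all 5 lower genes, Gbp2 and Gbp3 lost theirs when all 12 libraries were fitted together, as did Tnfrsf1b (adjusted p = 0.079). In the ileum 0 of 21 were called by edgeR, and 5 had an unadjusted p under 0.05, as 4716 of all 15462 genes did. DESeq2 called 5 of the list, all higher, and 2715 of all genes, and limma-voom called 0 of all genes. The list count was 8 without TNFdARE replicate 2 (4633 over all genes) and 5 when all 12 libraries were fitted together (2722 over all genes). Cxcl9 was the 1 member that differed between tissues (-2.56 ± 0.70, adjusted p = 0.0397), with 143, 27.5 and 84.4 CPM in TNFdARE ileum, against 29.5, 18.9 and 18.1 CPM in WT ileum, and 6.35, 6.62 and 6.60 CPM in TNFdARE synovium, against 13.6, 6.90 and 9.72 CPM in WT synovium; the call was lost under limma-voom (0.218), without the filter on low counts and without most single libraries (up to 0.0875).

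The genes whose levels ran most like those of each member were taken from 13227 genes over the 12 libraries after the mean of each tissue was removed. All 12 points carry the genotype difference, so a high Pearson r here is a description only. For Casp8 these were Plekhn1 (r = 0.964), Bak1 (0.962) and Tbc1d14 (0.957). For Mlkl they were Patl1 (0.966) and Zc3hav1 (0.942), and for Zbp1 H2-D1 (0.922), Parp9 (0.916) and Dtx3l (0.913). Ripk3 had Mcm3 (0.944), Supt16 (0.940) and Raly (0.940), and Ripk1 had Tacc3 (0.962), Cenpi (0.958) and Arhgap11a (0.955). Tradd had Rars (0.951), B3gnt3 (0.937) and Saa1 (0.935), Fadd had Leprot (0.933), Atxn3 (0.928) and Arsa (0.915), and Cflar had Necap2 (0.962) and Vash1 (0.952).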

How the data were processed

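Whole ileum and ankle synovium were profiled by stranded poly-A RNA sequencing with single reads of 100 cycles, per the labels' protocols. The table deposited by the authors holds unnormalized read counts, a row for each of 46603 Ensembl genes. Cutadapt 1.15, Bowtie2 2.3.3.1 and GRCm38 are listed in the submitters' processing notes; the counting tool is not given in the sources used here. A second deposited table, of FPKM values, was not used here because it holds no value of 0.

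GENCODE M21 of GRCm38 gave a symbol to 98.9% of the IDs. Counts were filtered by filterByExpr, scaled by TMM and tested two-sided in R 4.3.3 with the robust quasi-likelihood F test of edgeR 4.0.16, with Benjamini-Hochberg adjustment over all genes. Adjusted p-values are edgeR's where no tool stands beside them. Each tissue was fitted by itself on 6 libraries. The interaction and the tissue comparisons used 1 model of the 4 groups. SE is the log2 fold change divided by the square root of F. Printed CPM share 1 TMM scale over the 12 libraries. A count of 0 would allow up to 3 counts, or 0.173 to 0.219 CPM, counting error only. Ratios had 0.5 counts added before the log and were compared by exact permutation. The edgeR p-values rest on the spread between the 3 libraries of each group, shared over the groups in a fit and moderated across genes. In the interaction and tissue comparisons that spread covers all 4 groups, so TNFdARE ileum enters the WT comparison too. Replicate counts varied by 11.2 to 92.9 times the Poisson variance, so all were counted as separate samples.

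The named genes were the 8 members, Tnf, up to 4 called genes per pathway list and tissue by smallest adjusted p, and the 3 most similar genes per member. Tnfrsf1a, Gbp3, the genes named for the interaction, and Bad, Iigp1, Rsad2, Ifit3 and Usp18 were added after their values were seen. A few genes that these rules name are not reported here. The members, lists and markers were chosen with earlier results of these data known.

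Replicate numbers were checked as pairs over 10535 autosomal genes. In the synovium the deviations of TNFdARE and WT libraries with the same number correlated at 0.455, 0.293 and 0.177 (Pearson r across genes, which are not independent), all above 0.1, so the numbers were taken to pair the synovium libraries, and the pairing comes from the data and not from the labels. It is uncertain, because TNFdARE replicate 3 correlated with WT replicate 2 at 0.164, close to its 0.177 with WT replicate 3. The main tests had no block, and the pairing entered only as an alternative. In the ileum the values were 0.249, 0.255 and 0.0867. The alternatives were RLE factors, library size only, no filter, DESeq2 1.42.0, limma-voom of limma 3.58.1, all 12 libraries in 1 fit, a replicate block and leaving out each library. The procedure was tested on simulated data with planted changes larger than the genotype differences of the members, so changes of their size were not covered.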

Additional observations from a re-analysis of the deposited data

Results flagged for a closer look

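The effect of the TNFdARE allele differed between synovium and ileum, by the interaction test of edgeR, for 2 of the 8 genes. Over all genes tested, 5.28% were called higher and 6.8% lower. The differences, synovium minus ileum on the log2 scale, were 0.70 for Casp8 (0.61 ± 0.076 in synovium and -0.12 ± 0.10 in ileum, SE) and 0.67 for Tradd (0.40 ± 0.13 in synovium and -0.30 ± 0.10 in ileum). Every TNFdARE synovium library was above every WT one for both genes, and every TNFdARE ileum library was below every WT one for Tradd. Casp8 kept its interaction call without any 1 library, and Tradd did not (edgeR adjusted p up to 0.058). The ratio of Cflar to Casp8 lay lower in 3 of 3 TNFdARE synovium libraries and higher in 3 of 3 TNFdARE ileum libraries than in any WT library of the tissue, a difference of -0.57 log2 units that was not tested. Within each tissue the exact permutation test gave p = 0.1, the smallest it allows, and 0.4 when adjusted over 8 ratio tests.

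Among neighbours in the pathway the same test passed for Fas (0.92), for the genes that act on RIPK3 or on its activators Hsp90aa1 (0.75), Ticam1 (0.68) and Tlr3 (0.58), and for Bak1 (0.85), Casp6 (0.77), Bad (0.64) and Apaf1 (0.57), all more positive in synovium. It passed with more negative values in synovium for Bcl2 (-0.86), Bcl2l11 (-0.98) and the interferon target Cxcl9 (-2.56). Of these neighbours Bak1, Bad and Bcl2 kept the call when any single library was left out, and the others did not. By list, the interaction called 1 of 12 death receptors and ligands and 0 of 23 receptor complex genes. It called 3 of 13 other genes acting on RIPK3, MLKL or ZBP1, and 1 of 21 interferon targets. Of 23 caspase and BCL2 family genes it called 5 higher and 2 lower. Over all genes tested it called 2050 of 16964.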

How the results depend on the processing

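Casp8 in the synovium and its difference between tissues passed under every alternative run. The genes called in the ileum numbered 879, against 1379 with library size only, 2715 by DESeq2, 0 by limma-voom, 2722 with all 12 libraries in 1 fit and 0 to 4633 with a library left out; members called were 0 to 1 when a library was left out. Of the ileum calls 72.5% were higher, against 88.3% with library size only and 61.9% by DESeq2; library size only moved the median of all genes to 0.11 there and, between WT tissues, to 0.17, from 0.025. Genes called in the synovium ran from 2141 to 2927 and members from 1 to 3 without a library, against 3713 and 4. For the interaction 2050 genes were called, 3193 by DESeq2 and 1015 to 3506 without a library, with 1 to 2 members; 43.7% were higher, against 31.2% with library size only. Signs turned for some values that were not called in the main fits. Ileum Zbp1 was -0.039 by limma-voom and ran from -0.20 without TNFdARE replicate 1 to 0.66 without replicate 2, where it was called. Ileum Casp6 was 0.023 with library size only and ran from -0.16 to 0.0091 without a library. Ileum Ripk1 ran from -0.019 to 0.059 without a library. For Cflar, synovium over ileum, the WT value was 0.014 with library size only. In TNFdARE mice the Cflar value was 0.030 with RLE factors, 0.070 with library size only and 0.030 by DESeq2. Without a library it ran from -0.025 to 0.14. The Tnf interaction, -0.67 and not called, ran from -0.98 to 0.017 without a library. Without a library the log2 ratio differences ran from -0.031 to 0.29 for Ripk3 to Casp8 in synovium, from -0.52 to 0.37 in ileum and -0.27 to 0.080 in synovium for Zbp1 to Ripk3, and from -0.065 to 0.35 in ileum and -0.076 to 0.23 in synovium for Mlkl to Ripk3. The cause was not tested. With replicate number as a block 1128 genes were called in the ileum, where the numbers were not taken as pairs and TNFdARE replicate 3 correlated best with WT replicate 1, 4842 in the synovium and 2620 for the interaction. In the ileum it called 6 in place of 3 receptor complex genes higher and lost Bad (adjusted p = 0.0501), and for the interaction it lost Tlr3 (0.07); of the member calls it changed those of Ripk1 and Ripk3 in the synovium and no other. Counting error is largest for Fadd, Mlkl, Zbp1, Ripk3 and Tradd in the synovium, the members with the fewest counts, of which Mlkl and Zbp1 were called. There 4 members, Fadd, Ripk1, Ripk3 and Tradd, ended between an edgeR adjusted p of 0.0523 and 0.0597. The part of counting error in these values was not tested.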
